A study of Mus musculus with 6 samples.

Results

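The CD300 and TREM receptors are a group of immunoglobulin-like receptors carried by myeloid cells, and 9 of their genes were examined in bulk RNA sequencing of mouse bronchoalveolar lavage cells, which rinsing of the airways and alveoli recovers. The genes were Cd300a, Cd300lf, Cd300lb, Cd300ld and Cd300e of the CD300 family and Trem1, Trem3, Trem2 and Treml4 of the TREM family. They were selected by gene name from the 40564 genes in the tables, where 18 genes carry a CD300 or TREM name, and they were selected with their differences between these genotypes already known. The differences between genotypes given for them are therefore descriptions, and where calls of a test are counted for them, nothing is read from those counts.

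The 6 libraries fell into 3 genotypes with 2 replicates each. WT had no deletion. Cis_KO lacked CIS, the product of Cish, an SH2-domain protein that restrains cytokine receptor signalling through STAT5. Cis_Stat6_DKO lacked CIS and also STAT6, the transcription factor that carries interleukin 4 and interleukin 13 signals. No group was treated, and all libraries carry the same batch date. The labels give the tissue as lung, the cells as immune cells, and neither age, sex nor strain. They do not say how the deletions were made, in which cells they act, or whether the 2 replicates of a genotype came from separate animals or from pools, so p-values measure only the spread between these samples. Stat6 stood at 221 to 264 CPM (read counts relative to library size, scaled between libraries) in WT and Cis_KO and at 25.5 to 31.6 CPM in Cis_Stat6_DKO. Cish stood at 46.2 to 56.2 CPM in WT and at 1.72 to 5.04 CPM in the other 4 libraries, so both targeted transcripts followed the labels.

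CD300 and TREM receptors work as paired systems on macrophages, monocytes and granulocytes. Inhibitory members carry ITIM motifs in their own tails and recruit the phosphatases SHP-1 and SHP-2, whereas activating members have short tails and signal through the ITAM adaptors DAP12 (Tyrobp) or the Fc receptor gamma chain (Fcer1g) to the kinase SYK. Several bind lipids exposed on dying cells, and in the lung they are known for tuning how macrophages respond to debris, lipids and microbial products.

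1 library stood apart from the others. Cis_KO replicate 2 had 15855 genes with at least 1 count, against 19641 to 20431 in the other libraries, and haemoglobin genes took 3.29% of its counts, against at most 0.0366% elsewhere. Library totals ran from 50762354 to 65937118 counts. The 16 alveolar macrophage markers all had counts in every library, and summed to 17880 to 26450 CPM in WT, 17520 to 22190 CPM in Cis_KO and 34680 to 43670 CPM in Cis_Stat6_DKO. The secreted protein gene Chil3 carried much of this sum, and without it the other 15 summed to 9101 to 11435 CPM, 10624 to 10637 CPM and 12402 to 12538 CPM. The part of these differences in the receptor levels was not tested. The defining mast cell and basophil markers Fcer1a, Ms4a2 and Cma1 had 0 counts in all 6 libraries. Erythroid and platelet markers summed to 38670 CPM in Cis_KO replicate 2 and to 15.2 to 354 CPM elsewhere, B cell markers to 143 CPM in it and 0.636 to 58.0 CPM elsewhere, and epithelial markers to 262 CPM in it and 26.0 to 126.5 CPM elsewhere. In bulk RNA, fewer cells of a type and less RNA per cell cannot be told apart, and this holds for every level below.

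The 9 genes lie in 2 clusters. In mm10, the Cd300 locus spans 243952 bases of chromosome 11 (114890041 to 115133992) and holds 11 family genes, 5 of them examined here. The Trem locus spans 134409 bases of chromosome 17 (48232768 to 48367176) and holds 6 family genes, 4 of them examined here. All 18 family genes in the tables are in GENCODE M21 with the same start, end and strand.

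Upstream sequences are shown for the 3 receptors whose levels differed most between genotypes, Cd300ld, Treml4 and Cd300e. That of Cd300ld3, a neighbour of Cd300ld with another pattern, is shown as well. Its promoter was 89% identical to that of Cd300ld over the aligned bases. The sequences come from RefSeq on GRCm38.p6, which held promoters for 8 of the 9 genes, and Trem3 is named only. Each is read 5′ to 3′ on the gene's strand and ends at the base before the gene start. In Cd300ld (chr11:114989923-114990136, minus strand) and Cd300ld3 (chr11:115048410-115048580, minus strand) the capitals mark GAGGAAGT, the letters searched for the myeloid factor PU.1. In Cd300e (chr11:115062178-115062289, minus strand) they mark TTCTCTGAA, a match to TTCNNNGAA, the spacing that STAT dimers bind. In Treml4 (chr17:48264045-48264294, plus strand) they mark a run of 40 bases that occurs 2 times.
Cd300ld: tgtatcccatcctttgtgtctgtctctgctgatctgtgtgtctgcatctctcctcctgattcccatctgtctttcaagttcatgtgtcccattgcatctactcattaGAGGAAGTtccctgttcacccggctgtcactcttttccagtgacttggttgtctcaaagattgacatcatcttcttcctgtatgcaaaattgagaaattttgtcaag
Cd300ld3: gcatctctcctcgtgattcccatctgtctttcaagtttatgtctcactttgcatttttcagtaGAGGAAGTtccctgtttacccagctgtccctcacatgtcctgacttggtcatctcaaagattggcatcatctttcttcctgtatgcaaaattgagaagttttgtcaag
Cd300e: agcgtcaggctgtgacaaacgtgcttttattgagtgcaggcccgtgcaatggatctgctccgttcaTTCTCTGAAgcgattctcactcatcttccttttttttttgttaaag
Treml4: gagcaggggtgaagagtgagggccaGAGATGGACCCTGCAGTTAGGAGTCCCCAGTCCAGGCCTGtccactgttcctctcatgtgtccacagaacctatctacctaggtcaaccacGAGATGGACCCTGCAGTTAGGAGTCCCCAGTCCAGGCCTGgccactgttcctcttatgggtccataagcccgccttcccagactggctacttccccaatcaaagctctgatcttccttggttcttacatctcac

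Motifs were searched on both strands in windows of 250 bases before to 50 after each RefSeq start, and the share of all 32851 such promoters holding each is given as background. GAGGAAGT occurred in Cd300ld (-143 to -136 from the start) and Cd300lf (0 to 7), and in 3.2% of all promoters. TTCNNNGAA occurred in Cd300e (-184 to -176) and Trem1 (-171 to -163, as TTCAGAGAA), and in 8.3% of all promoters. The form associated with STAT6, with 4 bases between TTC and GAA, is in none of the 8 windows and in 6.95% of all promoters. TGANTCA, the AP-1 site, occurred in Trem2 (-9 to -3) and in 7.81% of all promoters. Each of these 5 promoters held a single match, so no matches overlapped. The promoters of Cd300ld3, Cd300ld4 and Cd300ld5 were 89%, 88.3% and 88.3% identical to that of Cd300ld over the aligned bases, against 62.2% to 65.6% for Cd300c2, Cd300e and Cd300lb, and each held GAGGAAGT at -187 to -180. A direct repeat at least as long as that of Treml4 was found in 90 of the 32851 promoters (0.274%). These matches describe letters and say nothing about binding.

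The inhibitory receptors Cd300a and Cd300lf varied least of the 9. Cd300a, an ITIM receptor for phosphatidylserine and phosphatidylethanolamine, stood at 119.7 and 101 CPM in WT, 94.8 and 88.3 CPM in Cis_KO, and 93.45 and 122.5 CPM in Cis_Stat6_DKO. The Cis_KO libraries lay below both WT libraries, while Cis_Stat6_DKO overlapped both other genotypes. Its log2 fold change (edgeR, ± SE) was -0.27 ± 0.20 in Cis_KO against WT, 0.24 ± 0.20 in Cis_Stat6_DKO against Cis_KO and -0.03 ± 0.20 in Cis_Stat6_DKO against WT.

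Cd300lf, an ITIM receptor of mouse myeloid cells that recognises lipids including ceramide, stood at 151.9 and 169.9 CPM in WT, 199.9 and 139 CPM in Cis_KO, and 193.2 and 177.7 CPM in Cis_Stat6_DKO. The 2 Cis_KO libraries bracketed all the others, and both Cis_Stat6_DKO libraries lay above both WT libraries. In the same order of comparisons the log2 fold changes were 0.07 ± 0.22, 0.13 ± 0.22 and 0.20 ± 0.22, each within its standard error of 0. The ratio of the highest to the lowest library was 1.44 for Cd300lf and 1.39 for Cd300a, against 10.7 for Cd300ld.

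Among the activating CD300 receptors, Cd300ld had the largest difference between genotypes. Cd300ld signals through the Fc receptor gamma chain. It stood at 28.7 and 38.95 CPM in WT (1665 and 2665 reads), 5.72 and 3.63 CPM in Cis_KO (366 and 159 reads), and 27.25 and 28.1 CPM in Cis_Stat6_DKO (1886 and 1367 reads). Both Cis_KO libraries lay far below all 4 others, and both Cis_Stat6_DKO libraries lay just below WT replicate 1.

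The group means of Cd300ld were 33.8 ± 7.23 CPM in WT, 4.68 ± 1.48 CPM in Cis_KO and 27.7 ± 0.608 CPM in Cis_Stat6_DKO (SD, n = 2), so Cis_KO was 7.24-fold below WT and Cis_Stat6_DKO 5.92-fold above Cis_KO. The log2 fold changes were -2.85 ± 0.31 in Cis_KO against WT, 2.56 ± 0.30 in Cis_Stat6_DKO against Cis_KO and -0.29 ± 0.28 in Cis_Stat6_DKO against WT. Without Cis_KO replicate 2, the library that stood apart, the first 2 were -2.56 and 2.26.

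Cd300ld has 4 paralogs as neighbours, Cd300ld2 to Cd300ld5, and reads may have been split between them in a way the deposited counts do not show. The likeness of their transcripts was not measured. Their summed level was 6.80 and 7.26 CPM in WT, 6.96 and 4.00 CPM in Cis_KO, and 3.64 and 1.67 CPM in Cis_Stat6_DKO. The sum of the 4 neighbours was lowest in Cis_Stat6_DKO, where Cd300ld was near its WT level. Counting all 5 genes together gave 35.5 and 46.2, then 12.7 and 7.63, then 30.9 and 29.8 CPM. In this sum, too, both Cis_KO libraries lay below every other library. Reads shared with other family genes, such as Cd300c2, were not examined.

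Cd300lb, a DAP12-coupled activating receptor, stood at 42.1 and 36.2 CPM in WT, 35.45 and 27.5 CPM in Cis_KO, and 21.9 and 18.7 CPM in Cis_Stat6_DKO. The 3 genotypes did not overlap and ranked in the order WT, Cis_KO, Cis_Stat6_DKO, although WT replicate 2 and Cis_KO replicate 1 were nearly equal. Its log2 fold changes were -0.32 ± 0.22, -0.63 ± 0.22 and -0.95 ± 0.22, and WT was 1.93-fold above Cis_Stat6_DKO.

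Cd300e, an activating receptor of monocytes, stood at 5.12 and 5.19 CPM in WT, 10.99 and 7.56 CPM in Cis_KO, and 3.65 and 2.14 CPM in Cis_Stat6_DKO. Both Cis_KO libraries were highest, whereas for Cd300ld they were lowest, and both Cis_Stat6_DKO libraries were lowest. The log2 fold changes were 0.85 ± 0.40, -1.68 ± 0.41 and -0.83 ± 0.41, and Cis_KO was 1.80-fold above WT and 3.20-fold above Cis_Stat6_DKO. The 11 dendritic cell markers, all present in the tables, also summed highest in Cis_KO, at 273 to 283 CPM against 184 to 214 in WT and 137 to 188 in Cis_Stat6_DKO, with Cd209a at 0 counts in WT and Cis_KO. The median log2 fold change of the 9 tested was 0.99, -0.11 and 0.61 in the same order of comparisons. In Cis_Stat6_DKO against WT this median was thus above 0, although the summed levels of these genotypes overlapped. The 13 monocyte markers summed to 613 to 639 CPM in WT, 591 to 713 in Cis_KO and 444 to 599 in Cis_Stat6_DKO. Their median log2 fold change was 0.57, -0.46 and 0.36, so against WT the typical monocyte marker was higher in Cis_Stat6_DKO although the sum was lower. Without Cis_KO replicate 2 the monocyte medians were 0.10, 0.15 and 0.35. Those of the 10 dendritic cell markers tested in that fit were 0.46, 0.44 and 0.74. The sign in Cis_Stat6_DKO against Cis_KO thus depended on that library for both lists. The part of either list in the level of Cd300e was not tested.

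**Figure D1:**
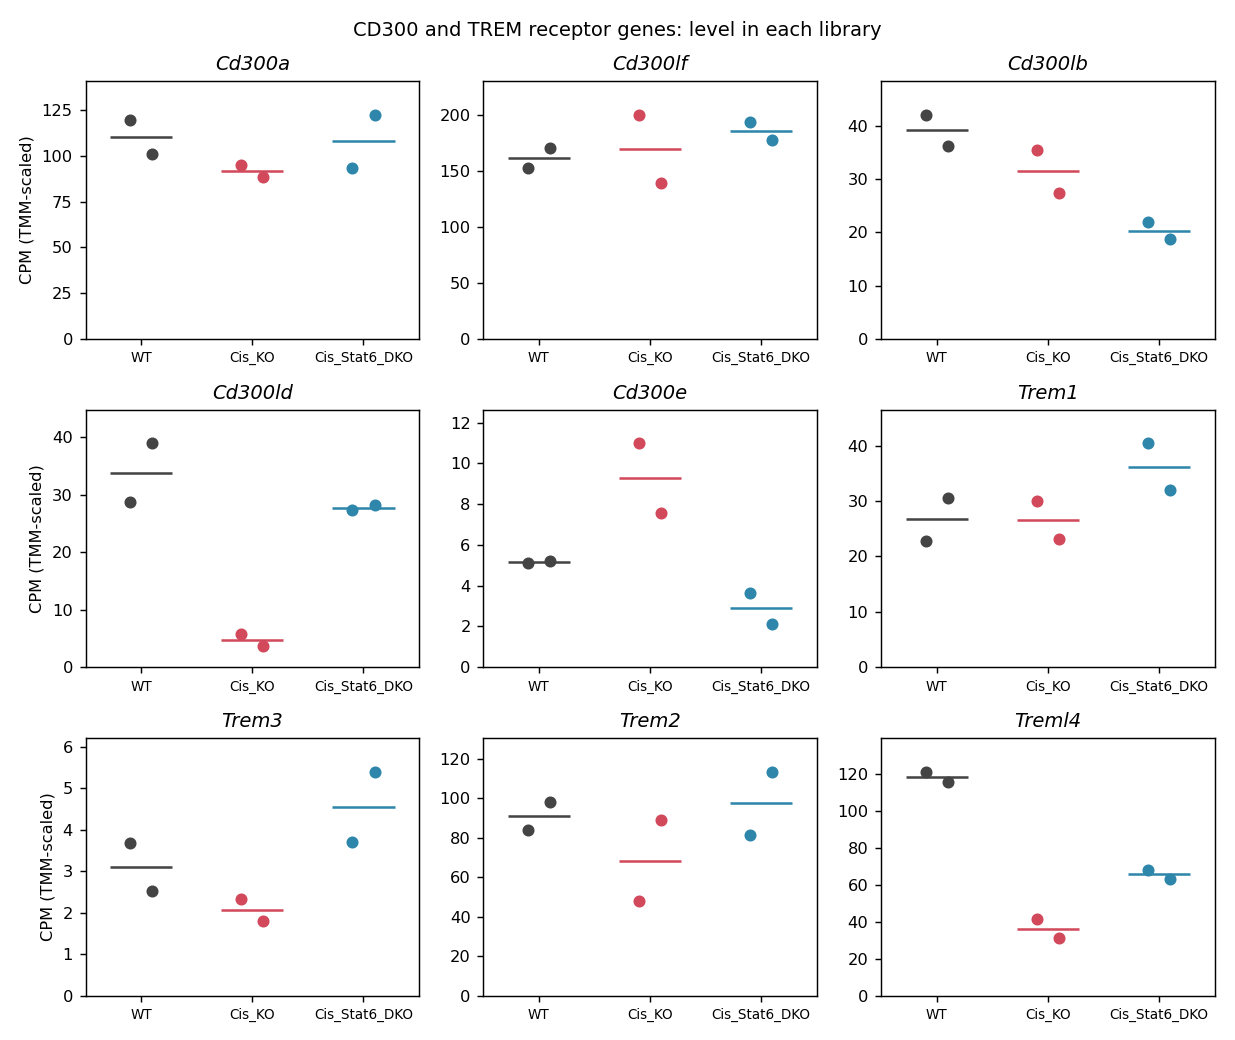
Normalised read count (CPM, vertical axis of each panel, scaled per gene) of the 9 receptor genes in each of the 6 libraries, with a bar at each genotype's mean. Both Cis_KO points of Cd300ld, at 5.72 and 3.63 CPM, lie below all 4 others, and those of Treml4, at 41.3 and 31.4 CPM, do too.

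Among the TREM receptors, Treml4 differed most. Treml4 binds dead cells and supports Toll-like receptor 7 signalling in macrophages. It stood at 121.3 and 115.7 CPM in WT, 41.3 and 31.4 CPM in Cis_KO, and 68.2 and 63.3 CPM in Cis_Stat6_DKO. No library of any genotype overlapped another genotype, and Cis_Stat6_DKO lay between WT and Cis_KO.

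The group means of Treml4 were 118.5 ± 3.995 CPM in WT, 36.3 ± 6.98 CPM in Cis_KO and 65.75 ± 3.45 CPM in Cis_Stat6_DKO (SD, n = 2). Cis_KO was 3.26-fold below WT, Cis_Stat6_DKO 1.81-fold above Cis_KO, and WT 1.80-fold above Cis_Stat6_DKO. The log2 fold changes were -1.71 ± 0.20, 0.86 ± 0.20 and -0.85 ± 0.20, so on the log scale the double deletion sat midway between the other 2 genotypes.

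Trem2, the DAP12-coupled receptor for lipids and lipoproteins that supports lipid handling in macrophages, stood at 83.7 and 98.2 CPM in WT, 47.8 and 88.9 CPM in Cis_KO, and 81.6 and 113.5 CPM in Cis_Stat6_DKO. Cis_KO replicate 1 was the single low library. Cis_KO replicate 2, the library that stood apart, lay within the WT range. The log2 fold changes of Trem2 were -0.41 ± 0.33, 0.51 ± 0.33 and 0.10 ± 0.33. Without Cis_KO replicate 2 the first 2 were -0.93 and 1.02.

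Trem1, which amplifies inflammatory responses of neutrophils and monocytes through DAP12, stood at 22.7 and 30.6 CPM in WT, 30.0 and 23.15 CPM in Cis_KO, and 40.45 and 32 CPM in Cis_Stat6_DKO. WT and Cis_KO covered the same range, and both Cis_Stat6_DKO libraries lay above it. Log2 fold changes of Trem1 were 0.00 ± 0.25, 0.45 ± 0.26 and 0.44 ± 0.25. The 16 neutrophil markers summed to 238 to 247 CPM in WT, 176 to 913 CPM in Cis_KO, with the high value in replicate 2, and 290 to 321 CPM in Cis_Stat6_DKO. The median log2 fold change of the 14 tested was 3.53, -0.93 and 1.43 in the same order of comparisons. Without Cis_KO replicate 2 it was -0.17, 2.08 and 1.42. In the fit of all 6 libraries, edgeR called 0 of the 14 in Cis_Stat6_DKO against WT. In that fit 5 were higher and 1 lower at an unadjusted p under 0.05, against 5.36% of all tested genes. Without Cis_KO replicate 2 some of the 14 were called in the same comparison, in both directions. Stfa1 and Stfa2l1 had 0 counts in WT and Cis_KO, and the part of neutrophils in the Trem1 level was not tested.

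Trem3, a mouse DAP12-coupled activating receptor whose human counterpart is a pseudogene, was among the least abundant of the group. It stood at 3.69 and 2.53 CPM in WT, 2.34 and 1.80 CPM in Cis_KO, and 3.70 and 5.41 CPM in Cis_Stat6_DKO. Cis_KO was lowest and Cis_Stat6_DKO highest, with WT replicate 1 next to Cis_Stat6_DKO replicate 1. For Trem3 the log2 fold changes were -0.58 ± 0.47, 1.13 ± 0.48 and 0.55 ± 0.47.

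Across the 9 genes, edgeR's quasi-likelihood test, with p adjusted over all 16765 tested genes, called Cd300ld and Treml4 in Cis_KO against WT, both lower, where it called 0.274% of all tested genes (0.119% higher and 0.155% lower). It called Cd300ld in Cis_Stat6_DKO against Cis_KO, there higher, with a background of 0.358% (0.239% higher and 0.119% lower). It called 0 of the 9 in Cis_Stat6_DKO against WT, with a background of 0.131% (0.0656% in each direction). There 2 of the 9, Cd300lb and Treml4, had an unadjusted p under 0.05, against 5.36% of all tested genes; DESeq2 called these 2 and limma on log2(FPKM + 1) called 0. Without Cis_KO replicate 2 the numbers called were 2, 2 and 2, against 1.02%, 2.68% and 1.9% of all genes tested in that fit. These were Cd300ld and Treml4 in the first comparison, Cd300ld and Cd300e in the second, and Cd300lb and Treml4 in the third. Since the genes were chosen with these contrasts known, nothing is read from these counts. All 9 passed the filter on low counts.

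The 2 libraries of each group did not overlap for 6 of the 9 genes in Cis_KO against WT (1 higher, 5 lower), for 6 in Cis_Stat6_DKO against Cis_KO (4 higher, 2 lower) and for 7 in Cis_Stat6_DKO against WT (3 higher, 4 lower). The same held for 47.4% of all tested genes in the first comparison (21.4% higher, 25.9% lower), for 50.4% in the second (27.9% higher, 22.5% lower) and for 46.8% in the third (23.3% higher, 23.5% lower). The median log2 fold change of the 9 was -0.32, 0.45 and -0.03, against -0.05, 0.05 and 0.00 over all tested genes. The Cis_KO libraries enter the first 2 comparisons, so opposite signs there are not separate observations.

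**Figure D2:**
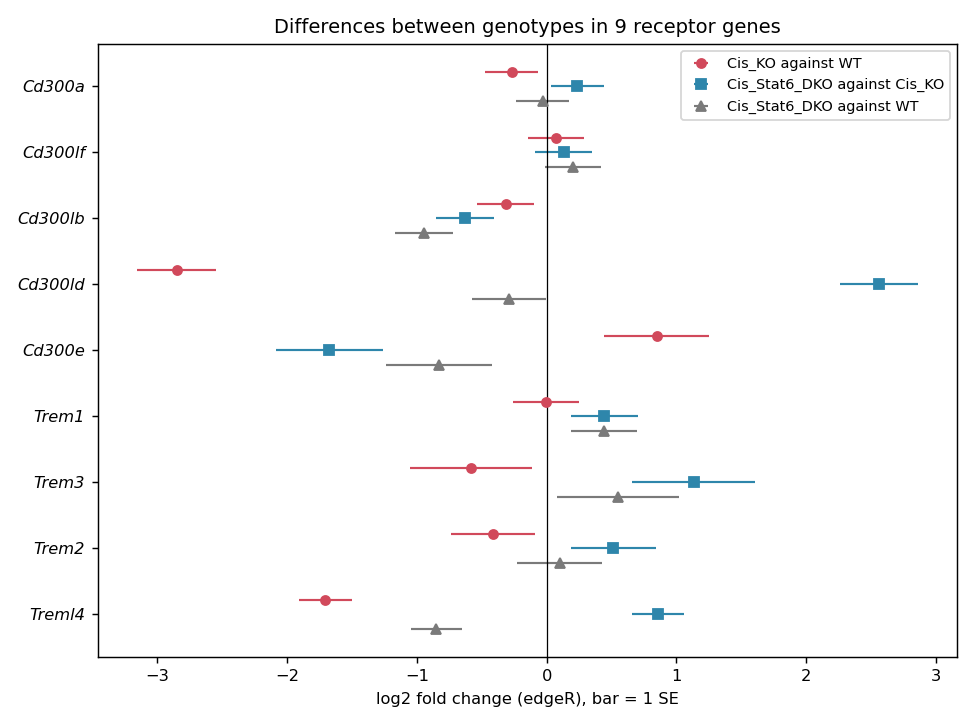
Log2 fold change (horizontal axis, edgeR) of each receptor gene (vertical axis) in the 3 comparisons between genotypes, with bars of 1 standard error. Cd300ld sits at -2.85 in Cis_KO against WT and 2.56 in Cis_Stat6_DKO against Cis_KO, and Cd300a and Cd300lf sit near 0 in all 3.

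Per gene length (FPKM), the order of the receptors differed between genotypes. Treml4 was the most abundant of the 9 in WT, at 57.5 and 54.1 FPKM, followed by Cd300lf at 27.95 and 30.8 and Cd300a at 23.9 and 19.9. In Cis_KO, Cd300lf led at 38.1 and 20.9 FPKM and Treml4 stood at 20.3 and 12.2. In Cis_Stat6_DKO, Cd300lf led at 36.5 and 28.9 FPKM, with Treml4 next at 33.2 and 26.5.

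The bottom of the order differed as well. Cd300e was lowest in WT at 2.32 FPKM in both libraries and in Cis_Stat6_DKO at 1.70 and 0.85, whereas in Cis_KO the lowest was Cd300ld at 2.12 and 1.06. The neighbours Cd300e and Trem3 in WT (2.32 and 2.32 against 3.51 and 2.37), and Cd300ld and Trem3 in Cis_KO (2.12 and 1.06 against 2.3 and 1.4), were not separated beyond the spread of their libraries.

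The 9 receptors together summed to 162 and 163 FPKM in WT, 119 and 79.9 for Cis_KO and 141 and 125 for Cis_Stat6_DKO. The inhibitory pair Cd300a and Cd300lf made up 31.96% and 31.1% of this sum in WT, 48.6% and 44.2% for Cis_KO and 39.6% and 40.5% for Cis_Stat6_DKO. Among these 9 genes, the 3 genotypes did not overlap in this share. In level the pair summed to 51.9 and 50.8 FPKM in WT, 57.8 and 35.3 for Cis_KO and 55.7 and 50.5 for Cis_Stat6_DKO, which do overlap. The 7 activating genes summed to 110.5 and 112.3 FPKM, then 61.1 and 44.6, then 85.0 and 74.3, and the share of Treml4 was 35.4% and 33.2%, then 17.1% and 15.2%, then 23.6% and 21.2%. The activating receptor Cd300c2, which was not selected, is left out of these sums and shares. It stood at 132.5 and 135.4 FPKM in WT, 149 and 193 for Cis_KO and 123.5 and 116.8 for Cis_Stat6_DKO. In every library that is above the sum of the 7 activating genes. Cd300c2 was higher in Cis_KO replicate 2 than in replicate 1, whereas the inhibitory pair was lower. The shares, and the lack of overlap between genotypes in them, therefore hold for the 9 selected genes only. Shares with Cd300c2 counted were not computed, so neither can be carried over to the whole family. FPKM values also carry the make-up of the rest of the library, which in Cis_KO replicate 2 was unlike the others.

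**Figure D3:**
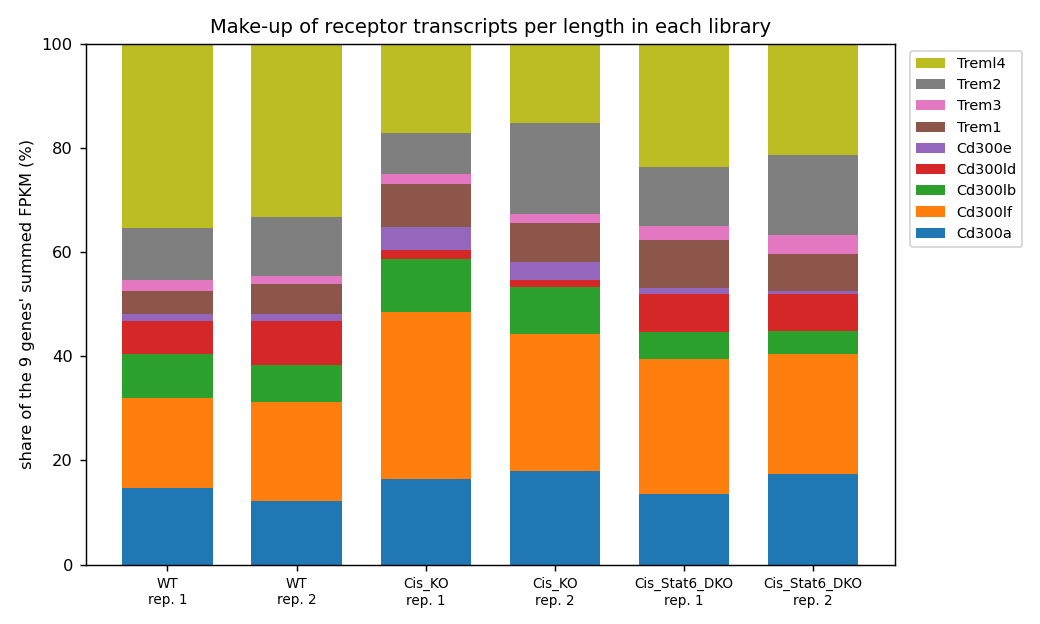
Share of the summed FPKM of the 9 receptor genes (vertical axis, percent) taken by each gene in each library (horizontal axis). The more abundant Cd300c2, which was not selected, is left out. The bottom 2 segments, Cd300a and Cd300lf, reach 31.96% and 31.1% in WT and 48.6% and 44.2% in Cis_KO, and the top segment, Treml4, narrows from 35.4% and 33.2% to 17.1% and 15.2%.

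Ratios within a library do not depend on scaling between libraries. The FPKM ratio of Cd300ld to the inhibitory Cd300lf was 0.368 and 0.446 in WT, 0.0556 and 0.0507 for Cis_KO and 0.275 and 0.308 for Cis_Stat6_DKO. The ratio of Cd300e to Cd300ld was 0.226 and 0.169 in WT, 2.43 and 2.64 for Cis_KO and 0.170 and 0.0956 for Cis_Stat6_DKO, so Cd300e exceeded Cd300ld in the Cis_KO libraries and in no other. The ratio of Treml4 to Trem1 was 8.03 and 5.67 in WT, 2.06 and 2.03 for Cis_KO and 2.53 and 2.96 for Cis_Stat6_DKO, with both deletion genotypes below WT.

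The 9 family genes that were not selected include the most abundant of all, Cd300c2, an activating CD300 receptor, at 132.5 and 135.4 FPKM in WT, 149 and 193 for Cis_KO and 123.5 and 116.8 for Cis_Stat6_DKO. The gene lists, like the 9 receptors, were chosen with earlier results of these data known, so nothing is read from counts of calls in them. As background for the counts that follow, 11.1%, 18.3% and 5.36% of all tested genes had an unadjusted p under 0.05. These shares are for Cis_KO against WT, Cis_Stat6_DKO against Cis_KO and Cis_Stat6_DKO against WT, the order used below. DESeq2 called 3.45%, 9.83% and 1.97% of the genes it tested, limma on log2(FPKM + 1) called 0.589%, 1.52% and 0.414%, and edgeR without Cis_KO replicate 2 called 1.02%, 2.68% and 1.9%. Of the 9 genes not selected, 8 were tested and edgeR called 0 in any comparison. The number with an unadjusted p under 0.05 was 0, 1 and 1, the gene being Treml2 in the latter 2, and DESeq2 called Treml2 in Cis_Stat6_DKO against Cis_KO while limma on log2(FPKM + 1) called 0. Treml2, a TREM-like receptor of macrophages and lymphocytes, stood at 11.4 and 11.5 CPM in the WT libraries, 5.50 and 10.5 in the Cis_KO ones, and 17.9 and 26.4 in Cis_Stat6_DKO, with log2 fold changes of -0.52 ± 0.37, 1.47 ± 0.37 and 0.95 ± 0.37. Treml2 was also called by edgeR without Cis_KO replicate 2 in Cis_Stat6_DKO against Cis_KO.

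The genes that flank the 2 clusters gave 0 calls in any of the 3 comparisons by edgeR, of 8 tested around the Cd300 locus and 7 around the Trem locus. Those with an unadjusted p under 0.05 numbered 1, 2 and 0 at the Cd300 locus and 0, 1 and 0 at the Trem locus. Nat9, an N-acetyltransferase gene beyond the Cd300lf end of the cluster, stood at 7.37 and 10.1 CPM in the WT libraries, 15.8 and 26.65 in the Cis_KO ones, and 9.22 and 11.9 in Cis_Stat6_DKO (log2 fold change 1.28 ± 0.34 in Cis_KO against WT, adjusted p = 0.359), and was the single flanking gene that DESeq2 called in any comparison, while limma on log2(FPKM + 1) called 0. Within the clusters, Cd300ld and Cd300e lie in the same 243952 bases and lay on opposite sides of their WT levels in Cis_KO. Fdxr had -0.87 ± 0.29 in Cis_Stat6_DKO against Cis_KO (adjusted p = 0.225). At the Trem locus Foxp4 had -0.92 ± 0.34 there (adjusted p = 0.243), and Apobec2 had 0 counts in both WT libraries and at most 0.485 CPM elsewhere.

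**Figure D4:**
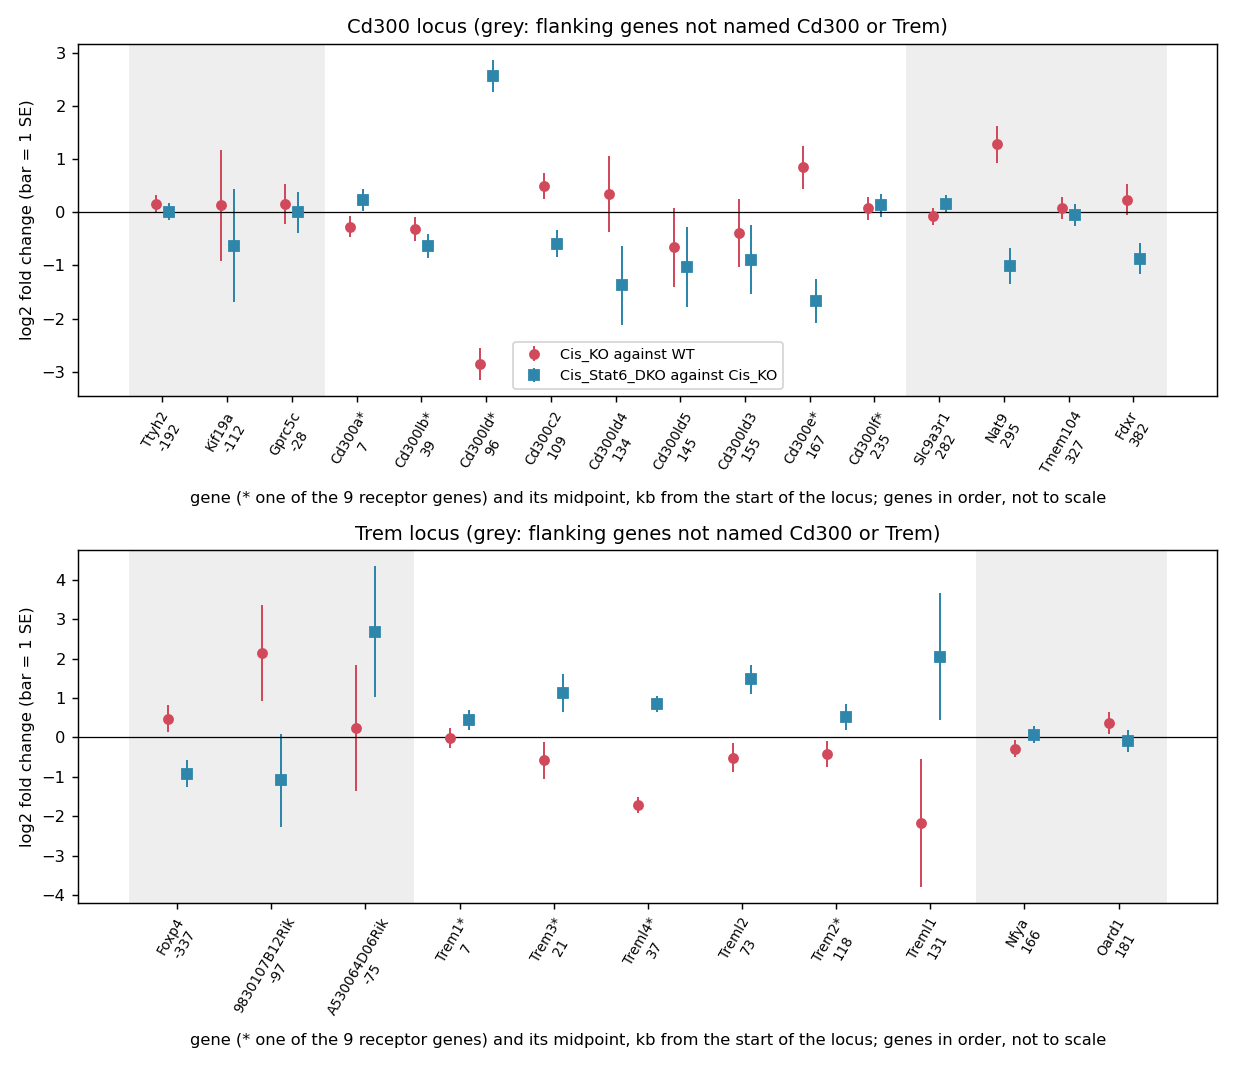
Log2 fold change (vertical axis) in Cis_KO against WT and in Cis_Stat6_DKO against Cis_KO for genes of the Cd300 and Trem loci and their flanks, in order along the chromosome and not to scale, labelled by the distance of their midpoint from the locus start (kb); bars are 1 standard error and asterisks mark the examined receptors. Untested genes and genes under 1 CPM in all libraries are left out, and Cd300ld at -2.85 and Treml4 at -1.71 are the lowest of the examined receptors in Cis_KO against WT.

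The adaptors and signal genes of these receptors gave no call by edgeR. The adaptor genes Tyrobp, Hcst and Fcer1g gave 0 of 3 called in each comparison. At an unadjusted p under 0.05 there were 2 of 3 in Cis_KO against WT and 0 in the other 2. DESeq2 and limma on log2(FPKM + 1) also called 0. Tyrobp, which encodes DAP12, stood at 334 and 417 CPM in the WT libraries, 446 and 852 in the Cis_KO ones, and 422 and 471 in Cis_Stat6_DKO, and its log2 fold change in Cis_KO against WT was 0.79 ± 0.32 (edgeR adjusted p = 0.438). The high value lies in Cis_KO replicate 2 alone, and without that library the change was 0.25 ± 0.18 (adjusted p = 0.758). Hcst, which encodes the adaptor DAP10, stood at 46.3 CPM in that library and at 9.70 to 12.5 CPM in the other 5.

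Of 28 genes of the activating pathway, edgeR called 0 in each comparison, with 3, 7 and 3 at an unadjusted p under 0.05; DESeq2 called 1, 1 and 0, and limma 0. Malt1, a scaffold and protease downstream of ITAM receptors and CARD9, followed the direction of Cd300ld, at 113 and 101 CPM in the WT libraries, 53.2 and 35.9 in the Cis_KO ones, and 79.8 and 109.6 in Cis_Stat6_DKO (log2 fold change -1.27 ± 0.26, adjusted p = 0.201, and 1.09 ± 0.26, adjusted p = 0.154). Tec, a kinase of the same pathway, had 0.64 ± 0.18 in Cis_Stat6_DKO against WT (adjusted p = 0.566). Of 9 genes of the inhibitory pathway, edgeR also called 0, with 3, 3 and 1 at an unadjusted p under 0.05; DESeq2 called 0, 2 and 0, and limma 0, 1 and 0. Dok2, an adaptor that restrains tyrosine kinase signalling, stood at 22.9 and 18.35 CPM in the WT libraries, 38.2 and 50.8 in the Cis_KO ones, and 15.3 and 8.47 in Cis_Stat6_DKO, the order of Cd300e. Its change in Cis_Stat6_DKO against Cis_KO was -1.90 ± 0.34 (adjusted p = 0.0925), and it was called there without Cis_KO replicate 2. Csk, a kinase that restrains SRC-family kinases, had -0.97 ± 0.21 in the same comparison (adjusted p = 0.13).

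Of 8 tested genes for ligands and shedding of TREM receptors, edgeR called 0, with 3, 2 and 2 at an unadjusted p under 0.05. DESeq2 called 1, 2 and 0, and limma 0. The DESeq2 calls were Actb in the first comparison and Apoe and Actb in the second. Actb stood at 6505 CPM in Cis_KO replicate 2 and at 1153 to 1852 CPM elsewhere. Apoe, whose product binds TREM2, stood at 18.6 and 10.1 CPM in the WT libraries, 27.1 and 19.0 in the Cis_KO ones, and 6.39 and 1.44 in Cis_Stat6_DKO (log2 fold change -2.55 ± 0.69 in Cis_Stat6_DKO against Cis_KO, adjusted p = 0.181). Hmgb1, an alarmin that TREM1 recognises, had 0.79 ± 0.21 in Cis_Stat6_DKO against WT (adjusted p = 0.506). Of 29 genes that mark TREM2-linked lipid-associated macrophages, edgeR called 0. At an unadjusted p under 0.05 there were 1 higher and 3 lower, then 16 higher and 3 lower, then 9 higher and 2 lower; DESeq2 called 1, 15 and 6, and limma 0, 2 and 1. Their median log2 fold change was -0.05, 0.62 and 0.40 in the 3 comparisons. Lipa, the lysosomal acid lipase, stood at 1230 and 1136 CPM in the WT libraries, 717 and 529 in the Cis_KO ones, and 1410 and 1575 in Cis_Stat6_DKO, and its change in Cis_Stat6_DKO against Cis_KO was 1.26 ± 0.22 (adjusted p = 0.0905). Csf1, the macrophage growth factor, had 3.27 ± 0.47 there (adjusted p = 0.0636). Without Cis_KO replicate 2, 5 of the 29 were called there (Cd63, Fabp4, Fabp5, Lipa and Csf1, all higher), against 2.68% of all genes, and 5 were called higher in Cis_Stat6_DKO against WT (Cd63, Fabp5, Clec7a, Ch25h and Tspo), against 1.9%.

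Of 17 tested inflammatory genes that TREM1 is known to amplify, edgeR called 1 lower in Cis_KO against WT (Cxcl2) and 3 higher in Cis_Stat6_DKO against Cis_KO (Cxcl2, Il1b and Cxcl3). It called 0.274% and 0.358% of all tested genes there. Because this list was chosen with earlier results of these data known, its counts are a description and not a test. At an unadjusted p under 0.05 there were 8 lower in the first comparison and 13 higher in the second. DESeq2 called 7 and 10, and limma 2 and 8. Cxcl2, a neutrophil-attracting chemokine, stood at 26.0 and 26.25 CPM in the WT libraries, 2.55 and 3.01 in the Cis_KO ones, and 51.75 and 63.9 in Cis_Stat6_DKO. Il1b, the inflammatory cytokine, stood at 15.4 and 20.4 CPM in the WT libraries, 5.77 and 4.50 in the Cis_KO ones, and 84.65 and 64.5 in Cis_Stat6_DKO. The median log2 fold change of the 17 was -1.11, 2.33 and 1.16, while the log2 fold changes of Trem1 itself were 0.00, 0.45 and 0.44. Without Cis_KO replicate 2, 18 genes were tested and 3 were called lower and 11 higher in the same 2 comparisons, against 1.02% and 2.68% of all genes. In Cis_Stat6_DKO against WT edgeR called 0 of the 17, with 7 higher at an unadjusted p under 0.05; DESeq2 called 6 and limma 1. Without Cis_KO replicate 2, 4 were called higher there (Il1b, Cxcl2, Cxcl3 and Ptgs2), against 1.9% of all genes.

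Of 27 tested genes for other paired immunoglobulin-like receptors, edgeR called 0. At an unadjusted p under 0.05 there were 3 higher and 2 lower, then 9 higher and 4 lower, then 10 higher and 2 lower; DESeq2 called 1, 10 and 5, and limma 0, 3 and 0. Fcgr2b, the inhibitory IgG receptor, stood at 39.9 and 40.0 CPM in the WT libraries, 104 and 89.2 in the Cis_KO ones, and 76.9 and 66.5 in Cis_Stat6_DKO (log2 fold change 1.27 ± 0.19 in Cis_KO against WT, adjusted p = 0.0707). Both deletion genotypes lay above WT for Fcgr2b, which was not so for the inhibitory Cd300a and Cd300lf. Lilr4b had 1.51 ± 0.24 in Cis_Stat6_DKO against Cis_KO (adjusted p = 0.0725). With Cis_KO replicate 2 left out, Fcgr2b alone of the 27 was called in Cis_KO against WT, 7 were called in Cis_Stat6_DKO against Cis_KO and 5 in Cis_Stat6_DKO against WT (Cd200r2, Cd200r4, Siglecg, Cd33 and Fcgr2b; 4 higher and 1 lower), against 1.02%, 2.68% and 1.9% of all genes.

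Genes with the pattern most like each receptor over the 6 libraries were ranked by the root mean square difference of centred log2(CPM + 0.5), as a description over points that share library and depth. Of 9167 genes compared, the nearest to Cd300ld was Gadd45a, a stress-induced growth-arrest gene, at 0.265, with 7.56 and 7.70 CPM in the WT libraries, 1.31 and 0.959 in the Cis_KO ones, and 7.79 and 9.87 in Cis_Stat6_DKO. Zc3h12c followed at 0.378 and Spdl1 at 0.399, and the median over all genes was 1.25. For Treml4 the nearest were Fzd1 at 0.192, Alas1 at 0.207 and Scd2 at 0.215, and for Cd300e they were Cpne5 at 0.158, Cx3cl1 at 0.183 and Slc9a2 at 0.218.

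The other members, whose patterns were flatter, had nearer matches. Cd300lb was nearest to Fancc, Prdm1 and Gapt, Cd300a to Mettl25, Xpnpep3 and Nmd3, and Cd300lf to Dync1i2, Pctp and Stom. Trem1 was nearest to Tob1, Acad12 and Klf4, Trem2 to Dnajc15, Akip1 and Morrbid, and Trem3 to Fdft1, Sqle and Lrp11. Fdft1 and Sqle are enzymes of cholesterol synthesis. Among the 9 receptors the nearest pair was Cd300lf and Trem1 at 0.165.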

How the data were processed

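The authors deposited, for each library, a raw count of reads per gene and an FPKM value, per the file headers. Genome build mm10 is named in the submitters' processing notes. No aligner, counting tool or strandedness is given in the sources used here. Counts of near-identical and antisense genes are therefore uncertain. Testing of the deposited counts used edgeR 4.0.16 (R 4.3.3; TMM, filterByExpr, quasi-likelihood F test, 6 libraries in 1 fit, no replicate block, two-sided), with Benjamini-Hochberg adjusted p under 0.05 over 16765 genes. The standard error is the size of the log2 change over the square root of F. The biological coefficient of variation was 50.3% on 3 residual degrees of freedom, which for the receptor genes is above the error of counting. CPM values use the TMM factors. Lists name their called genes (at most 4), or else the 2 with the smallest unadjusted p, and the likeness ranking took tested genes of at least 5 CPM. The script was tested on simulated data. Members and lists were chosen with earlier results of these data known. List counts without Cis_KO replicate 2 and by the other tools were added after seeing the data. The alternatives were DESeq2 1.42.0, RLE, no scaling, no filter, the replicate block, limma 3.58.1 on log2 FPKM and each library left out.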

Additional observations from a re-analysis of the deposited data

How the results depend on the processing

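Of 27 log2 fold changes (9 genes, 3 comparisons), 22 kept their sign under all 14 alternatives; the other 5 were those of Cd300lf in Cis_KO against WT and in Cis_Stat6_DKO against Cis_KO, of Trem1 in Cis_KO against WT, and of Cd300a and Trem2 in Cis_Stat6_DKO against WT. Cd300ld in Cis_KO against WT ranged from -3.24 to -2.35 and was called in 7 of 14, and in Cis_Stat6_DKO against Cis_KO from 2.04 to 2.94, called in 7 of 14. Treml4 in Cis_KO against WT ranged from -1.93 to -1.52 and was called in 6 of 14. The number of the 9 called in Cis_KO against WT (2) was 0 without scaling, 0 with the replicate block, 1 with log2(FPKM + 0.1), 0 with unfiltered log2(FPKM + 1) and 0 to 2 with a library left out. In Cis_Stat6_DKO against Cis_KO (1) it was 0 without scaling, 3 by DESeq2, 3 without the filter, 0 with the replicate block, 0 with unfiltered log2(FPKM + 1) and 0 to 3 with a library left out. In Cis_Stat6_DKO against WT (0) it was 2 by DESeq2 and 0 to 2 with a library left out. The calls in the first 2 comparisons were lost when either WT library or either Cis_Stat6_DKO library was left out (Cd300ld in Cis_KO against WT then had an adjusted p of 0.0964, 0.212, 0.114 or 0.106) and kept without either Cis_KO library. In each such fit the lone sample is assumed to vary like the other groups. Of all genes, 46 were called in Cis_KO against WT, against 26 without scaling, 546 by DESeq2, 1021 without the filter, 24 with the replicate block, 74 with filtered and 2 with unfiltered log2(FPKM + 1), and 3 to 5349 with a library left out. The 60 in Cis_Stat6_DKO against Cis_KO became 29, 1557, 1840, 28, 191 and 2 under the same settings, 99 with log2(FPKM + 0.1) and 4 to 5999 with a library left out. The 22 in Cis_Stat6_DKO against WT became 321 by DESeq2, 385 without the filter, 12 with the replicate block, 52 with filtered and 1 with unfiltered log2(FPKM + 1), 35 with log2(FPKM + 0.1) and 0 to 350 with a library left out. The cause of these differences was not tested. Replicate numbers showed no sign of pairing the samples: the correlations of the differences between replicates 1 and 2 were -0.0721, -0.121 and 0.0547 between pairs of genotypes. With 1 difference per genotype these values cannot exclude a pairing, and the labels do not state one. With the replicate block the adjusted p in Cis_KO against WT was 0.0717 for Cd300ld and 0.0814 for Treml4.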
